A study of Danio rerio with 20 samples.

Results

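The cytochrome P450 family 2 genes of the zebrafish (Danio rerio) were taken as all genes of the count table whose symbol begins with cyp2 followed by a subfamily letter. They numbered 43 of 32520 genes, under 40 symbols, because cyp2k6, cyp2x10.2 and cyp2y3 were each carried by 2 genes with separate Ensembl identifiers. The larvae were wild type and were collected whole at 5 days post fertilisation. Larvae of the exposed groups had spent the last day in water with a 20x secondary effluent extract (SEC) from a wastewater treatment plant. The extracts came from sampling campaigns named JUN20 and OCT20, and each had a control group, which the labels name only CTRL. Each of the 4 groups (CTRL JUN20, SEC JUN20, CTRL OCT20 and SEC OCT20) held 5 libraries, each from a pool of 10 larvae. Nothing in the labels says whether pools came from separate spawns, so p-values measure the spread between pools.

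Cytochromes P450 are haem enzymes of the endoplasmic reticulum that insert oxygen into lipophilic molecules, with electrons passed on by P450 reductase and cytochrome b5. Family 2 is among the largest P450 families of vertebrates and holds many enzymes for drugs and pollutants in the liver, gut and kidney. It also holds conserved members for vitamin D and fatty acids. Most zebrafish subfamilies (cyp2k, cyp2x, cyp2y, cyp2aa, cyp2ad, cyp2n, cyp2p, cyp2v) have no human counterpart of the same name. In mammals the pregnane X receptor and the constitutive androstane receptor switch on family 2 genes, and fish have the former (nr1i2) but not the latter.

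Library totals were 28.8 to 59.9 M counts (M, mega), and 23121 genes passed the filter on low counts. Of the 43 family 2 genes 39 passed it. The other 4 were cyp2aa9 (0 to 15 counts per library), cyp2k22 (0 to 5), cyp2x6 (0 to 18) and the cyp2k6 copy ENSDARG00000009874 (1 to 14). These 4 were not tested. The OCT20 pools were divided into 2 sets by the sign of their score on a first principal component. That component held 37.7% of the variance left after group means were removed. Such a cut yields 2 sets from any libraries, and whether the pools form separate groups was not tested. CTRL replicates 1, 3 and 5 and SEC replicates 4 and 5 formed set A, and CTRL replicates 2 and 4 and SEC replicates 1, 2 and 3 formed set B. Values with each set alone, computed after the data were seen, are given beside each call that they end. Listed markers of liver, gut, kidney, pancreas, neurons, muscle and lens were present, with no listed marker at 0 in all libraries. At this depth that is a weak check of the labelled tissue.

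Family 2 transcripts rose with both extracts, and few fell. Together the 43 genes took 642 ± 31.9 CPM (the usual depth-scaled count unit, here after TMM scaling of library totals; SD, n = 5 for every mean ± SD) in CTRL JUN20 and 1066 ± 116 in SEC JUN20. They took 631 ± 32.2 CPM in CTRL OCT20 and 1716 ± 154 in SEC OCT20. The lowest SEC library (932 CPM in JUN20, 1460 in OCT20) lay above the highest CTRL library of its campaign (670 and 675 CPM). Without cyp2k18, cyp2y3 ENSDARG00000101423 and cyp2n13, which added the most CPM in OCT20, the other 40 genes took 464 ± 21.9 and 633 ± 45.3 CPM in JUN20 and 475 ± 24.6 and 731 ± 56.2 CPM in OCT20 (CTRL, then SEC). In a whole larva, more cells of a type and more RNA per cell cannot be told apart.

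In JUN20, 16 of 39 family 2 genes (41%) were higher with SEC at an adjusted p under 0.05 (edgeR's quasi-likelihood test, Benjamini-Hochberg over 23121 genes), where 5.92% of all tested genes were higher. None was lower, against 4.9% of all tested genes. By edgeR 1 was lower at an unadjusted p under 0.05, and DESeq2 called 1, with shares of all genes not counted for either. In OCT20, 21 of 39 (53.8%) were higher, where 9.54% of all tested genes were, and 1 (2.56%) was lower, where 8.49% were. Scaling by library totals alone moved the shares of all genes to 7.79% higher and 3.13% lower in JUN20 and to 8.59% and 9.82% in OCT20. The family 2 counts were then 17 and 0 in JUN20 and 21 and 1 in OCT20. All 16 genes called in JUN20 were also called higher in OCT20, 76.2% of the 21. The overlap of calls over all tested genes was not counted. The median log2 fold change (SEC minus CTRL, as everywhere unless stated) was 0.45 over the 39 genes in JUN20 and 0.54 in OCT20, against -0.0049 and -0.014 over all tested genes. At least 2-fold higher and called were 7 of 39 (17.9%) in JUN20 and 13 of 39 (33.3%) in OCT20, where 0.385% and 1.07% of all tested genes were. All 5 SEC libraries lay above all 5 CTRL libraries for 17 of 39 genes (43.6%) in JUN20 and 16 of 39 (41%) in OCT20, where 6.54% and 6.43% of all tested genes did. All 5 lay below for 0 genes, where 6.04% and 4.7% of all tested genes did. The rise differed widely between genes, from cyp2k18 and cyp2x12 at over 3.7 on the log2 scale in both campaigns to genes near 0.

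**Figure D1:**
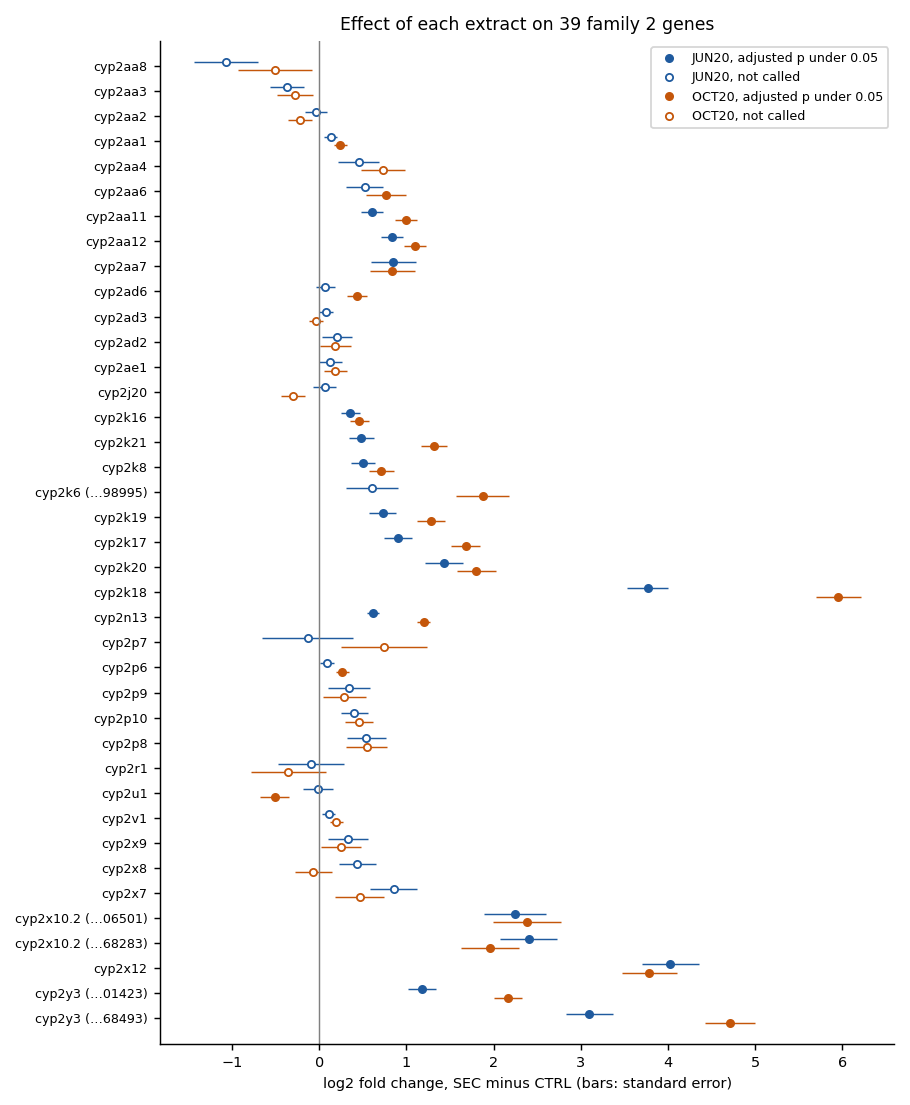
Log2 fold change, SEC minus CTRL, with its standard error for each of the 39 tested family 2 genes, ordered by subfamily, in JUN20 (blue) and OCT20 (orange). Filled points passed an adjusted p of 0.05. The genes cyp2k18, cyp2x12 and cyp2y3 ENSDARG00000068493 lie farthest to the right in both campaigns, above 3 on the log2 scale.

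The cyp2k subfamily, whose trout and zebrafish members oxidise lauric acid or activate aflatoxin, rose in 7 of 8 tested genes in JUN20 and in 8 of 8 in OCT20. Of all tested genes 5.92% were higher in JUN20 and 9.54% in OCT20. The gene cyp2k18 (ENSDARG00000104593) stood at 5.92, 6.58, 6.99, 7.08 and 8.36 CPM in the CTRL JUN20 libraries (replicates 1 to 5, as in every list below) and at 78.7, 147, 51.4, 73.4 and 122 CPM in SEC JUN20. In CTRL OCT20 it stood at 6.35, 7.08, 7.88, 7.01 and 7.07 CPM and in SEC OCT20 at 377, 468, 402, 379 and 564 CPM. The control levels of both campaigns were alike in range, every SEC library lay above them, and every SEC OCT20 library lay above every SEC JUN20 library. The change was 13.6-fold in JUN20 (log2 3.77 ± 0.24, standard error; adjusted p = 8.82e-09) and 61.9-fold in OCT20 (5.95 ± 0.26, adjusted p = 1.15e-11). The OCT20 change exceeded the JUN20 change by 2.19 ± 0.32 on the log2 scale (adjusted p = 0.00176). With the OCT20 libraries of set A alone that difference was 2.30 (adjusted p = 0.0511).

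For cyp2k17 the CTRL JUN20 libraries read 1.72, 1.46, 2.80, 1.83 and 2.38 CPM and the SEC JUN20 libraries 3.91, 3.44, 3.72, 4.25 and 3.68. In OCT20 the CTRL libraries read 2.63, 2.63, 2.04, 1.82 and 2.76 CPM and the SEC libraries 7.49, 8.0, 6.08, 6.48 and 10.1. The groups did not overlap in either campaign, and the log2 change was 0.90 ± 0.16 (adjusted p = 0.00102) in JUN20 and 1.68 ± 0.16 (adjusted p = 1.37e-07) in OCT20. For cyp2k21 the CTRL JUN20 libraries read 2.27, 2.09, 3.15, 2.7 and 3.01 CPM and the SEC JUN20 libraries 3.49, 3.20, 3.98, 3.68 and 3.95. In OCT20 they read 1.55, 2.52, 1.69, 2.56 and 1.62 CPM in CTRL and 4.62, 5.51, 4.60, 4.18 and 5.6 in SEC. The lowest SEC JUN20 library of cyp2k21 lay just above the highest CTRL library, whereas the OCT20 groups lay well apart. Its log2 change was 0.48 ± 0.14 (adjusted p = 0.0316) in JUN20 and 1.31 ± 0.15 (adjusted p = 1.31e-06) in OCT20. The difference between campaigns, 0.83 ± 0.21, was not called (adjusted p = 0.0513). For cyp2k21 CTRL OCT20 minus CTRL JUN20 was at -0.41 ± 0.15 (adjusted p = 0.113).

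Among the other cyp2k genes, cyp2k20 rose by a log2 change of 1.43 ± 0.22 (adjusted p = 0.000211) in JUN20 and 1.80 ± 0.23 (adjusted p = 6.28e-06) in OCT20. The gene cyp2k19 rose by 0.73 ± 0.15 (adjusted p = 0.00482) and 1.28 ± 0.16 (adjusted p = 8.58e-06). Smaller rises were seen for cyp2k8, 0.50 ± 0.14 (adjusted p = 0.0235) and 0.71 ± 0.14 (adjusted p = 0.00119), and for cyp2k16, 0.36 ± 0.11 (adjusted p = 0.0377) and 0.46 ± 0.11 (adjusted p = 0.00529). The cyp2k6 copy ENSDARG00000098995, which shares its symbol with a zebrafish enzyme known to activate aflatoxin, was at 0.61 ± 0.30 (adjusted p = 0.215) in JUN20 and rose by 1.87 ± 0.30 (adjusted p = 0.00017) in OCT20. In OCT20 its 5 SEC libraries (3.21 to 5.86 CPM) lay above its 5 CTRL libraries (0.633 to 2.38 CPM). The JUN20 calls of cyp2k16, cyp2k21 and cyp2k8 rested on all libraries together. Without SEC replicate 2 or 5 or CTRL replicate 2, 3, 4 or 5 that of cyp2k16 was lost. The call of cyp2k21 was lost without SEC replicate 3, 4 or 5 or CTRL replicate 1, 2 or 4, and that of cyp2k8 without SEC replicate 4 or 5 or CTRL replicate 3, 4 or 5. With a replicate block the JUN20 call of cyp2k8 was lost as well (adjusted p = 0.0638). In the set A libraries alone cyp2k16 was at 0.29 (adjusted p = 0.152) in OCT20, and in the set B libraries alone cyp2k6 was at 1.26 (adjusted p = 0.06).

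The 2 genes named cyp2y3, a fish enzyme of the same family whose substrates are poorly known, rose in both campaigns. For ENSDARG00000068493 the CTRL JUN20 libraries read 2.57, 2.62, 2.43, 2.73 and 3.24 CPM and the SEC JUN20 libraries 14.4, 29.5, 18.8, 25.7 and 26.9. In OCT20 the CTRL libraries read 1.07, 3.08, 1.44, 3.71 and 1.57 CPM and the SEC libraries 70.5, 64.7, 58.8, 34.7 and 49.8. No CTRL library reached 4 CPM and no SEC library was under 14 CPM, with OCT20 replicates 4 and 5, the SEC libraries of set A, the lowest of their group. The log2 change was 3.10 ± 0.27 in JUN20 (8.57-fold, adjusted p = 4.56e-07) and 4.71 ± 0.29 in OCT20 (26.2-fold, adjusted p = 1.15e-09).

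The second cyp2y3 copy, ENSDARG00000101423, read 108, 94.7, 98.0, 115 and 116 CPM in CTRL JUN20 and 200.3, 279, 214, 248 and 259 CPM in SEC JUN20. It read 82.1, 120.0, 70.3, 123 and 71.5 CPM in CTRL OCT20 and 493, 465, 443, 312 and 378 CPM in SEC OCT20. Again neither campaign had overlapping groups. Its log2 change was 1.17 ± 0.16 in JUN20 (adjusted p = 9.18e-05) and 2.16 ± 0.17 in OCT20 (adjusted p = 2.22e-08), and OCT20 exceeded JUN20 by 0.99 ± 0.22 (adjusted p = 0.0396). That difference lost its call in 14 of 20 fits that each left out 1 library, namely those without SEC JUN20 replicate 1, 3 or 4, CTRL JUN20 replicate 1, 3, 4 or 5, SEC OCT20 replicate 1, 2, 3 or 5, or CTRL OCT20 replicate 1, 3 or 5, with values from 0.90 to 1.11 over the 20. The call was lost as well with library totals alone (adjusted p = 0.05255), without a filter (adjusted p = 0.0608) and with a replicate block (adjusted p = 0.104). For the low copy the difference was 1.61 (adjusted p = 0.06). The sources used here do not say how reads were shared between copies, so the values of each copy are uncertain. With the counts of both copies summed, cyp2y3 rose by 1.27 ± 0.17 (adjusted p = 5.96e-05) in JUN20 and 2.31 ± 0.17 (adjusted p = 1.66e-08) in OCT20, with a difference of 1.04 ± 0.23 (adjusted p = 0.0362).

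**Figure D2:**
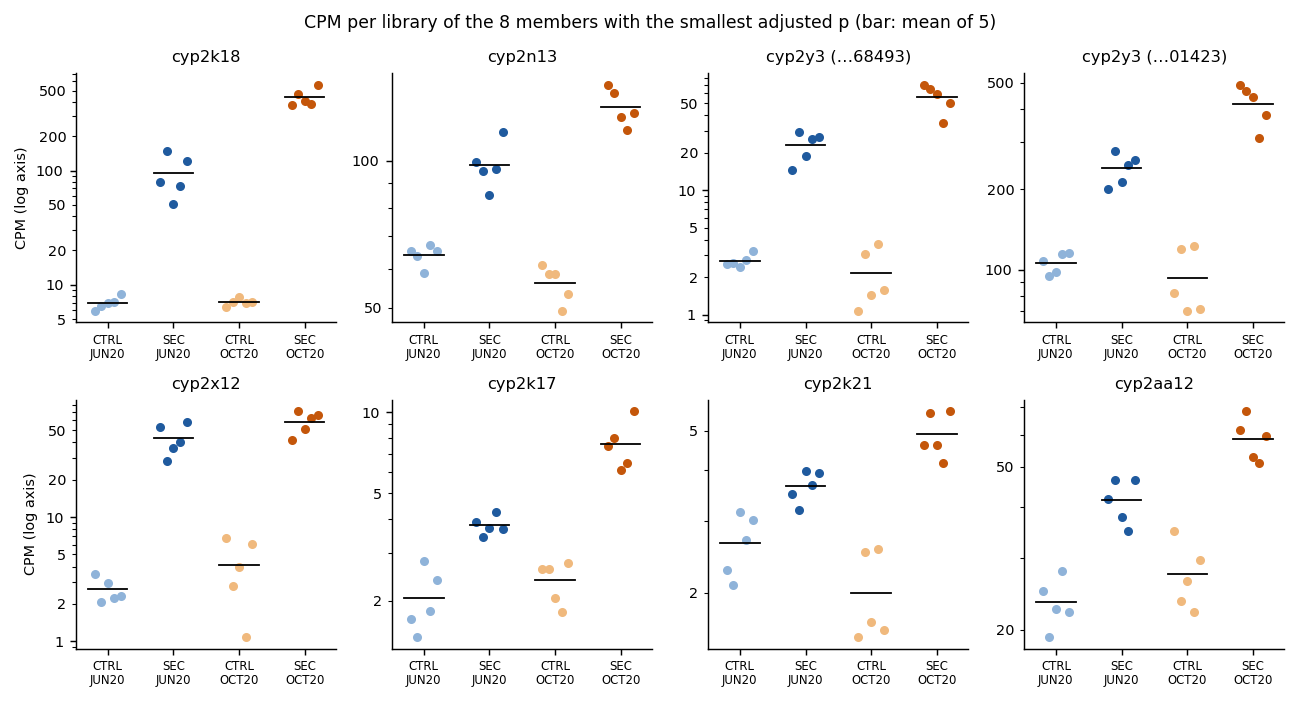
CPM on a log axis in each of the 20 libraries, by group, for the 8 family 2 genes with the smallest adjusted p; points are libraries in the order of their replicate number and bars are means of 5. In every panel the 5 SEC libraries of a campaign lie above its 5 CTRL libraries, and for cyp2k18 SEC OCT20 (377 to 564 CPM) lies above SEC JUN20 (51.4 to 147 CPM).

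The cyp2x subfamily, known from catfish and zebrafish, divided into genes that rose strongly and genes that were not called. The gene cyp2x12 (ENSDARG00000092091) read 3.47, 2.09, 2.97, 2.23 and 2.31 CPM in CTRL JUN20 and 53.0, 28.0, 36.0, 40.4 and 58.3 CPM in SEC JUN20. It read 6.83, 2.76, 3.97, 1.08 and 6.06 CPM in CTRL OCT20 and 41.9, 71.7, 50.8, 62.3 and 66.4 CPM in SEC OCT20. The controls of OCT20 spread more widely than those of JUN20, with the 3 set A libraries above the 2 set B libraries, but no control came near an exposed library. The log2 change was 4.03 ± 0.32 in JUN20 (16.3-fold, adjusted p = 1.96e-07) and 3.79 ± 0.32 in OCT20 (13.8-fold, adjusted p = 8.42e-08). The difference between campaigns was -0.24 ± 0.45 (adjusted p = 0.9), an estimate near 0 in contrast to that of cyp2k18.

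Both genes named cyp2x10.2 rose as well. For ENSDARG00000006501 the log2 change was 2.24 ± 0.36 (adjusted p = 0.000385) in JUN20 and 2.38 ± 0.39 (adjusted p = 0.000178) in OCT20. For ENSDARG00000068283 it was 2.40 ± 0.33 (adjusted p = 4.4e-05) and 1.96 ± 0.33 (adjusted p = 0.000214). In SEC JUN20 the first copy read 1.36 CPM in replicate 1 and 3.57 to 7.15 CPM in the other 4 libraries, against at most 1.25 CPM in CTRL. With the copies summed the symbol rose by 2.29 ± 0.32 (adjusted p = 8.54e-05) and 2.24 ± 0.33 (adjusted p = 7.17e-05). The gene cyp2x7 lay just outside the threshold in JUN20, at 0.85 ± 0.27 (adjusted p = 0.0501), although all 5 SEC libraries (5.96 to 7.80 CPM) lay above all CTRL libraries (2.73 to 4.82 CPM). It was called in JUN20 in 6 of 9 other settings (adjusted p = 0.0119 with DESeq2 and 0.0012 in a fit of that campaign alone) and without CTRL replicate 2 (adjusted p = 0.0471). In OCT20 cyp2x7 was at 0.46 ± 0.28 (adjusted p = 0.298), and it was called higher with set A alone (0.85, adjusted p = 0.00819) and with a term for the division of the pools (0.61, adjusted p = 0.0171). Neither cyp2x8 (0.44 ± 0.21, adjusted p = 0.202, and -0.068 ± 0.21, adjusted p = 0.873) nor cyp2x9 (0.33 ± 0.23, adjusted p = 0.396, and 0.25 ± 0.23, adjusted p = 0.523) was called in either campaign.

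The cyp2aa genes, a zebrafish tandem cluster with no human counterpart of that name, rose in 3 of 9 tested genes in JUN20 and in 5 of 9 in OCT20. The shares of all tested genes that were higher were 5.92% and 9.54%. The gene cyp2aa12 read 24.9, 19.2, 22.5, 27.9 and 22.1 CPM in CTRL JUN20 and 41.7, 46.4, 37.8, 34.9 and 46.6 CPM in SEC JUN20. It read 34.9, 23.5, 26.3, 22.1 and 29.7 CPM in CTRL OCT20 and 61.5, 68.5, 52.7, 51.1 and 59.4 CPM in SEC OCT20. Neither campaign had overlapping groups, and the log2 change was 0.83 ± 0.12 (adjusted p = 0.000162) in JUN20 and 1.1 ± 0.12 (adjusted p = 2.12e-06) in OCT20. The gene cyp2aa11 rose by 0.60 ± 0.12 (adjusted p = 0.00252) and 0.99 ± 0.13 (adjusted p = 8.56e-06), also without overlap in either campaign.

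The other cyp2aa calls were weaker. The gene cyp2aa7 rose by 0.85 ± 0.26 (adjusted p = 0.044) in JUN20 and 0.84 ± 0.25 (adjusted p = 0.0273) in OCT20. Its JUN20 call was lost in 9 of 10 fits that each left out 1 library, all but that without SEC replicate 3 (adjusted p up to 0.113), and its OCT20 call without SEC replicate 4 or 5 or CTRL replicate 2 or 4. The JUN20 call was also lost without a filter (adjusted p = 0.0613) and with a replicate block (adjusted p = 0.141). The OCT20 call of cyp2aa7 was lost with the block (adjusted p = 0.0944) and in a fit of that campaign alone (adjusted p = 0.0831). In CTRL OCT20 cyp2aa7 was at 7.76 to 9.04 CPM in the 3 set A libraries and at 3.63 and 2.97 CPM in the 2 set B libraries. The gene cyp2aa6, which the table types as an unprocessed pseudogene, was at 0.52 ± 0.21 (adjusted p = 0.129) in JUN20. In OCT20 it rose by 0.77 ± 0.23 (adjusted p = 0.0254), a call lost without SEC replicate 2, CTRL replicate 4 or CTRL replicate 5. The call was also lost in set A alone (0.44, adjusted p = 0.529), in set B alone (1.06, adjusted p = 0.107) and with the block (adjusted p = 0.0902). The gene cyp2aa1 was at 0.13 ± 0.071 (adjusted p = 0.265) in JUN20 and rose by 0.24 ± 0.072 (adjusted p = 0.0216) in OCT20, a call lost without CTRL replicate 2 or 4 and in set A alone (0.12, adjusted p = 0.444). A fit of OCT20 alone lost the call of cyp2aa1 too (adjusted p = 0.0616). Of the uncalled genes, cyp2aa8 had the most negative change in JUN20, -1.07 ± 0.37 (adjusted p = 0.0658), with 0.388 to 1.18 CPM in SEC and 0.817 to 3.38 CPM in CTRL, and was at -0.51 ± 0.43 (adjusted p = 0.463) in OCT20. It was called lower in JUN20 with DESeq2 (adjusted p = 0.0334), with a term for the OCT20 division (adjusted p = 0.0456) and without SEC replicate 4 or CTRL replicate 1. Without CTRL replicate 4, its highest library, the change was -0.63 (adjusted p = 0.255). The gene cyp2aa4 was at 0.45 ± 0.24 (adjusted p = 0.254) and 0.73 ± 0.25 (adjusted p = 0.0514; 0.0228 with DESeq2), and cyp2aa2 and cyp2aa3 had changes of -0.37 to -0.039 in both campaigns.

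Relatives of the fish and mammalian arachidonic acid epoxygenases form the cyp2n, cyp2ad, cyp2p and cyp2j subfamilies, in zebrafish next to cyp2v1. Of these only cyp2n13, whose killifish relatives make epoxides of arachidonic acid, rose in both campaigns among the 11 genes tested. It read 65.2, 63.9, 59.0, 67.1 and 65.2 CPM in CTRL JUN20 and 99.5, 95.3, 85.2, 96.2 and 115 CPM in SEC JUN20. It read 61.2, 58.6, 58.5, 49.2 and 53.3 CPM in CTRL OCT20 and 143, 138, 123, 116 and 125 CPM in SEC OCT20. The libraries of a group lay close together, and in each campaign the SEC group lay apart from its CTRL group. The lowest SEC OCT20 library (115.5 CPM) was just above the highest SEC JUN20 library (114.6 CPM). The CTRL groups of the campaigns overlapped, with CTRL OCT20 minus CTRL JUN20 at -0.19 ± 0.07 (adjusted p = 0.125). The log2 change was 0.62 ± 0.07 (adjusted p = 6.7e-06) in JUN20 and 1.2 ± 0.07 (adjusted p = 1.07e-10) in OCT20. The difference of 0.58 ± 0.10 (adjusted p = 0.00436) was 0.45 (adjusted p = 0.0531) with the set A libraries alone and 0.71 with set B alone.

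Of the other 10 genes of these subfamilies none was called in JUN20, with changes from -0.14 (cyp2p7) to 0.54 (cyp2p8). In OCT20 cyp2ad6 rose by 0.43 ± 0.11 (adjusted p = 0.00899) and cyp2p6 by 0.26 ± 0.077 (adjusted p = 0.019). The call of cyp2p6 was lost without SEC replicate 2 or CTRL replicate 4, and in set A alone it was at 0.077 (adjusted p = 0.64). In set B alone cyp2ad6 was at 0.39 (adjusted p = 0.206). A fit of OCT20 alone lost the call of cyp2p6 (adjusted p = 0.0793), and a replicate block that of cyp2ad6 (adjusted p = 0.0533). The gene cyp2p8 was at 0.54 ± 0.23 in both campaigns (adjusted p = 0.145 and 0.121; 0.0322 in JUN20 with a term for the OCT20 division). The gene cyp2p7 was at -0.14 ± 0.52 (adjusted p = 0.908) and 0.74 ± 0.50 (adjusted p = 0.349), with standard errors well above those of its neighbours. The genes cyp2ad3 (0.081 ± 0.08 and -0.04 ± 0.08), cyp2ad2 (0.20 ± 0.17 and 0.18 ± 0.18), cyp2v1 (0.11 ± 0.075 and 0.20 ± 0.076) and cyp2j20 (0.062 ± 0.13 and -0.30 ± 0.14) were not called, nor was cyp2ae1 of a further subfamily (0.13 ± 0.13 and 0.18 ± 0.13). Between them cyp2p9 and cyp2p10 were at 0.28 to 0.46 in both campaigns. Although cyp2ad2 was not called, all its SEC JUN20 libraries (67.6 to 74.9 CPM) lay above all its CTRL JUN20 libraries (55.9 to 67.2 CPM).

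The members that vertebrates share for endogenous substrates were not called higher. The gene cyp2r1, which encodes a vitamin D hydroxylase, was at -0.098 ± 0.38 (adjusted p = 0.908) in JUN20 and -0.35 ± 0.43 (adjusted p = 0.642) in OCT20, with 0.555 to 3.60 CPM among the SEC JUN20 libraries alone. The gene cyp2u1, which in humans encodes a long-chain fatty acid hydroxylase, was the 1 family 2 gene called lower. It read 17, 9.64, 14.0, 8.63 and 18.9 CPM in CTRL OCT20 and 8.88, 9.25, 8.23, 11.4 and 10.3 CPM in SEC OCT20. The groups overlapped, and the 3 high controls were the libraries of set A. The log2 change was -0.51 ± 0.17 (adjusted p = 0.0415) in OCT20 and -0.014 ± 0.17 (adjusted p = 0.974) in JUN20. In set B alone it was -0.05 (adjusted p = 0.851), and the call was lost without SEC replicate 1, 2, 3 or 5 or CTRL replicate 1, 3 or 5. The call was also lost without a filter (adjusted p = 0.0572), with a replicate block (adjusted p = 0.107) and in a fit of OCT20 alone (adjusted p = 0.122).

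The control contrast asked whether unexposed larvae of the campaigns differed, and it shares its libraries with the contrasts above. Of 39 genes 1 (2.56%) was higher in CTRL OCT20 than in CTRL JUN20, where 2.83% of all tested genes were, and 0 were lower, where 2.97% were (edgeR; at an unadjusted p under 0.05, 4 were higher and 5 lower, and DESeq2 called 1 higher and 1 lower). The gene was cyp2u1, at 0.59 ± 0.17 (adjusted p = 0.0458), with 7.66 to 11.0 CPM in CTRL JUN20 and the OCT20 values given above. That call was lost in 7 of 10 fits that each left out 1 library, namely those without CTRL JUN20 replicate 1, 2, 3 or 5 or CTRL OCT20 replicate 1, 3 or 5. Without a filter the call was lost too (adjusted p = 0.05955). The OCT20 change exceeded the JUN20 change in 3 of 39 genes (7.69%), where 0.787% of all tested genes had such a difference, and fell short of it in 0 (0.247% of all tested genes; 0 at an unadjusted p under 0.05, and 0 with DESeq2). With library totals alone, 0.528% of all tested genes were higher and 0.584% lower in this difference, with 2 and 0 family 2 genes, and 2.12% and 3.4% in the control contrast, with 1 and 0. The 3 genes were cyp2k18, cyp2n13 and cyp2y3 ENSDARG00000101423, and 10 family 2 genes exceeded at an unadjusted p under 0.05. Shares of all tested genes at an unadjusted p or with DESeq2 were not counted. Those counts therefore do not set family 2 genes apart from other genes. A strength of 20x is given for the exposures of both campaigns, and the composition of the extracts was not analysed here.

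Most zebrafish family 2 genes lie in tandem arrays. In the order of a RefSeq reference table of assembly GRCz12tu, which is not the build of the counts and was used for names and neighbours only, 5 arrays of at least 2 family 2 genes were seen. A gap of 5e+05 bases ended an array, and cyp2u1, cyp2k22, cyp2r1 and the cyp2y3 symbol each stood alone. Symbols carried by 2 genes of the count table were given no values here, since the reference table could not tell the copies apart. In the cyp2k array of 8, all 7 genes with a symbol of their own were called in both campaigns, from cyp2k18 at the first end to cyp2k8 next to the last. Among these 7 genes the changes of cyp2k18 and its neighbour cyp2k20 were the largest in both campaigns. In the cyp2aa array the first 5 genes (cyp2aa12, cyp2aa6, cyp2aa7, cyp2aa11 and cyp2aa4) had changes of 0.45 to 0.85 in JUN20 and 0.73 to 1.1 in OCT20. The tested genes after them (cyp2aa8, cyp2aa1, cyp2aa2, cyp2aa3 and cyp2ae1) had changes of -1.07 to 0.13 and -0.51 to 0.24. In the array that opens with cyp2n13, cyp2n13 was the 1 gene of 11 called in JUN20. In OCT20 cyp2ad6 and cyp2p6 were called beside it. In the array of cyp2x6 (not tested), cyp2x7, cyp2x8 and cyp2x9 no gene was called, whereas cyp2x12 and the cyp2x10.2 symbol lie together elsewhere. Of these, cyp2x7 lay just outside the threshold in JUN20 (adjusted p = 0.0501). Beside the counts of calls in arrays, 5.92% of all tested genes were higher in JUN20 and 9.54% in OCT20. These orders are descriptions, and no test of position was made.

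**Figure D3:**
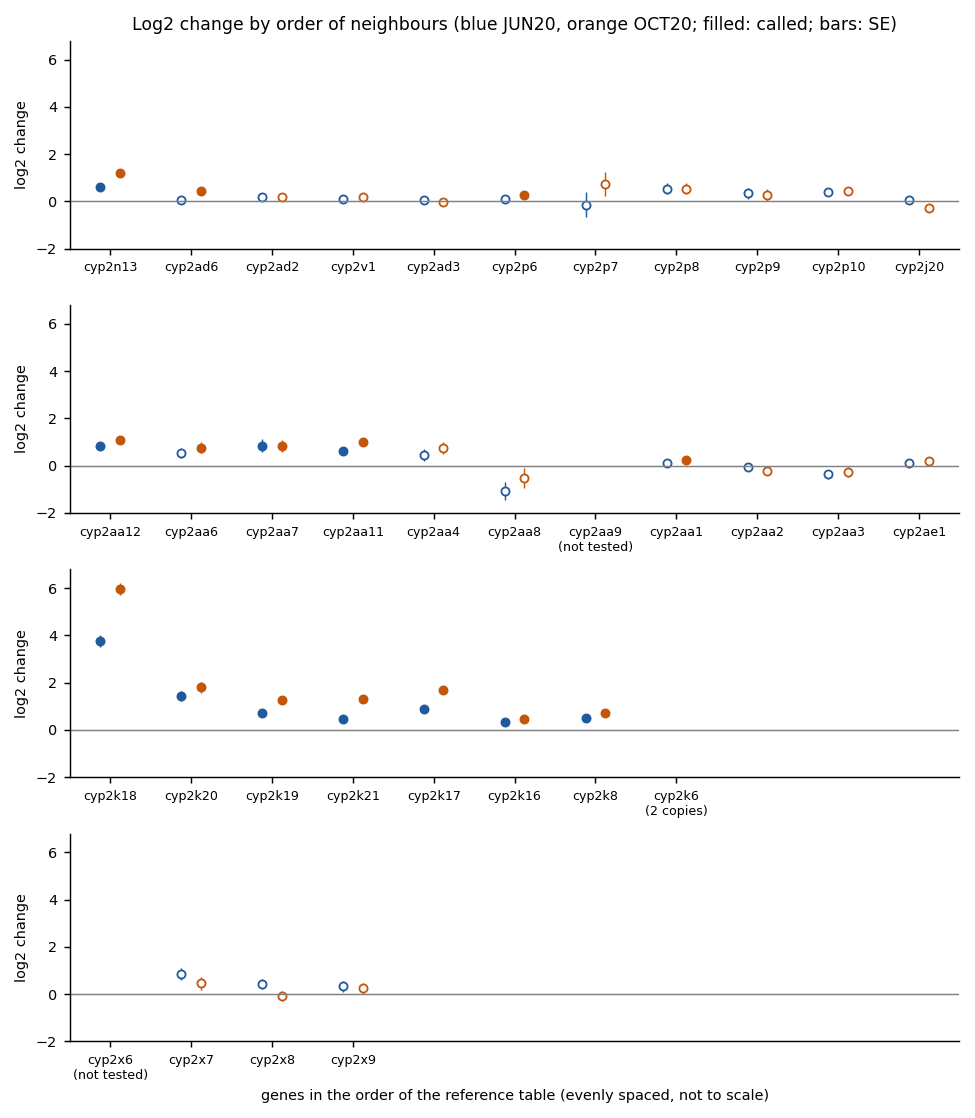
Log2 fold change with its standard error (JUN20 blue, OCT20 orange; filled where the adjusted p was under 0.05) for the genes of 4 arrays, in their order along the chromosome and evenly spaced. The changes are highest at the cyp2k18 end of the cyp2k array (3.77 and 5.95), and in the cyp2aa array the first 5 genes lie above the later ones.

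Some genes that serve the P450 enzymes of the endoplasmic reticulum rose as well. Of 10 listed electron transfer partners 5 rose in each campaign and none fell, with median changes of 0.31 in JUN20 and 0.36 in OCT20. Beside this list and those below, 5.92% of all tested genes rose and 4.9% fell in JUN20. In OCT20 9.54% rose and 8.49% fell. The gene porb, for P450 reductase, rose by 0.84 ± 0.05 (adjusted p = 6.39e-10) and 1.39 ± 0.05 (adjusted p = 4.1e-14), and its paralog pora by 0.23 ± 0.05 (adjusted p = 0.00596) and 0.49 ± 0.05 (adjusted p = 3.56e-07). Cytochrome b5 genes rose too, cyb5a by 1.27 ± 0.16 and 1.57 ± 0.17 and cyb5b by 0.42 ± 0.10 and 0.59 ± 0.11. The gene pgrmc1, for a haem-binding membrane protein that associates with P450 enzymes, rose by 0.54 ± 0.11 and 0.79 ± 0.11. The 4 cytochrome b5 reductase genes (cyb5r1 to cyb5r4) and pgrmc2 were not called. Of 9 haem synthesis genes 2 rose and none fell in each campaign. They were alas1, for the first and rate-limiting step, at 1.05 ± 0.12 and 1.36 ± 0.12, and fech, for the last step, at 0.68 ± 0.07 and 0.92 ± 0.08.

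Receptors and factors that regulate P450 genes moved in both directions. Of 28 tested, 4 rose and 4 fell in JUN20, and 10 rose and 5 fell in OCT20. The pregnane X receptor gene nr1i2 rose by 0.58 ± 0.07 (adjusted p = 1.67e-05) and 0.73 ± 0.07 (adjusted p = 2.7e-07). The aryl hydrocarbon receptor gene ahr2 rose by 0.41 ± 0.05 and 0.60 ± 0.05, while its relative ahr1b fell by 0.34 ± 0.07 and 0.46 ± 0.07. The bile acid receptor gene nr1h4 rose by 0.32 ± 0.07 and 0.42 ± 0.07, and hnf4b, a nuclear receptor gene related to the liver factor hnf4a, by 0.53 ± 0.11 and 1.1 ± 0.12. The gene hnf4a itself was not called (0.077 ± 0.075 and 0.10 ± 0.076). Beside ahr1b, the genes rxraa (-0.21 ± 0.06), arnt2 (-0.14 ± 0.04) and nr3c1 (-0.11 ± 0.04) fell in JUN20. In OCT20 rxrab (-0.43 ± 0.13), pparab (-0.36 ± 0.11), pparaa (-0.30 ± 0.10) and foxa1 (-0.18 ± 0.06) fell beside it. Among 8 matched genes for epoxide hydrolases and arachidonate enzymes, 2 rose in each campaign and none fell. The microsomal epoxide hydrolase gene ephx1 rose by 0.50 ± 0.10 and 0.78 ± 0.10, and ephx2, for the soluble hydrolase of fatty acid epoxides, was not called (0.16 ± 0.075 and 0.086 ± 0.076). The lipoxygenase gene alox12 rose by 0.21 ± 0.06 (adjusted p = 0.0241) in JUN20, and the cyclooxygenase gene ptgs2b by 0.45 ± 0.14 (adjusted p = 0.0225) in OCT20; the differences between campaigns were not called. Of 8 vitamin D genes set beside cyp2r1, 1 rose in JUN20 and 2 in OCT20. The gene cyp27a1.1 rose by 0.48 ± 0.07 and 0.50 ± 0.07, and the vitamin D catabolic gene cyp24a1 was at 0.44 ± 0.24 (adjusted p = 0.283) in JUN20 and rose by 0.86 ± 0.25 (adjusted p = 0.0194) in OCT20.

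**Figure D4:**
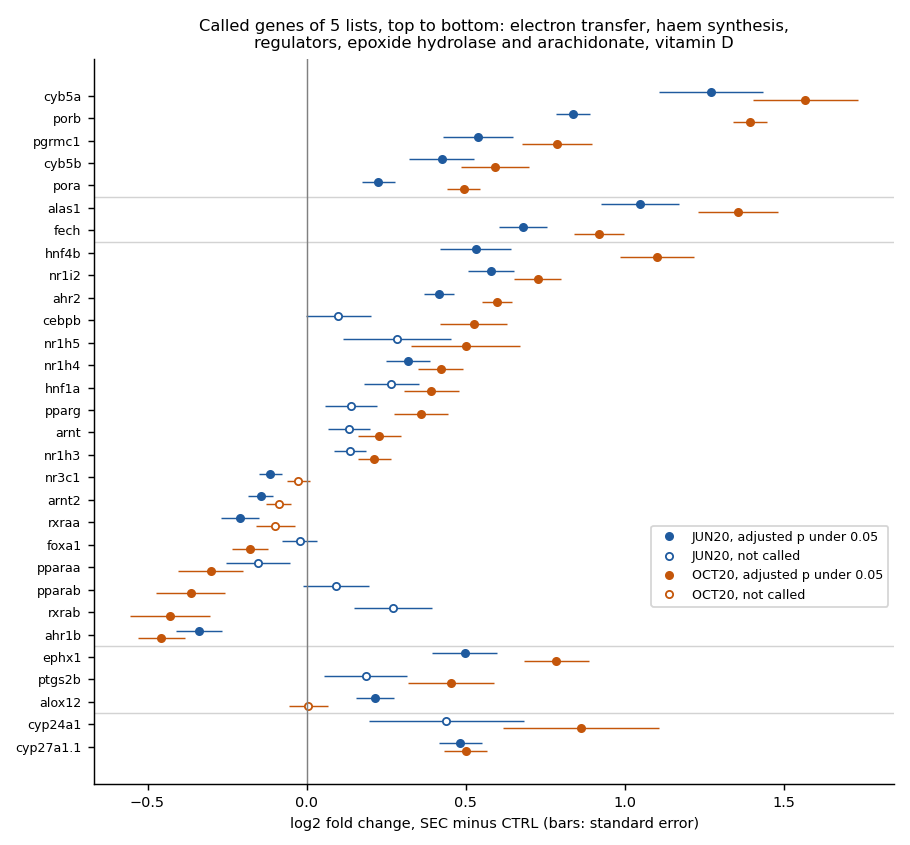
Log2 fold change with its standard error for the genes of 5 lists that were called in at least 1 campaign (JUN20 blue, OCT20 orange; filled where called). In the first 2 blocks (electron transfer and haem synthesis) all points lie right of 0, from 0.23 for pora in JUN20 to 1.57 for cyb5a in OCT20, whereas the block of regulators spans both sides. Uncalled genes of those 2 lists are not drawn, and they lay on both sides of 0.

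Listed markers of the organs in which family 2 enzymes are known moved in both directions. Over all tested genes 5.92% rose and 4.9% fell in JUN20, and 9.54% rose and 8.49% fell in OCT20. Of 14 hepatocyte markers 3 fell and none rose in JUN20, and 4 fell and 1 rose in OCT20; their summed level ran from 7622 to 8679 CPM in CTRL JUN20, 6538 to 7802 in SEC JUN20, 7093 to 9519 in CTRL OCT20 and 6423 to 7711 in SEC OCT20. Of 12 enterocyte markers 1 rose and 2 fell in JUN20 and 2 rose and 3 fell in OCT20, with summed levels of 3137 to 3782, 3082 to 3586, 3011 to 3616 and 2819 to 3540 CPM in the same order. Of 10 kidney tubule markers 3 rose in JUN20, and 7 rose and 1 fell in OCT20 (median log2 change 0.10 and 0.31), with summed levels of 571 to 630, 607 to 632, 560 to 596 and 580 to 684 CPM in that order. None of these markers was at 0 in all libraries, and the part of organ composition in the family 2 changes was not tested.

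Within the OCT20 groups some family 2 genes followed the division of the pools, as did some of all tested genes. The division was drawn from these same libraries, so such orders are no separate result. In CTRL and SEC alike 4 of 39 (10.3%) were higher in every set A library than in every set B library, and 7 (17.9%) were lower, where 9.18% and 9.7% of all tested genes were. The share of the 4 was near that of all tested genes. The 4 were cyp2x7, cyp2x8, cyp2aa7 and cyp2u1. The 7 were both cyp2y3 copies, cyp2ad2, cyp2p8, cyp2p9, cyp2k16 and cyp2aa11. For cyp2ad2 the SEC OCT20 libraries read 71.9, 70.4 and 66.3 CPM in set B and 40.8 and 43.0 CPM in set A. For cyp2x7 they read 3.43, 4.27 and 2.40 CPM in set B and 7.78 and 7.92 CPM in set A. With a term for the division in the fit, 23 genes were called higher in OCT20, against 18 with set A alone and 21 with set B alone. The fits of a single set used fewer OCT20 libraries. Shares of all tested genes were not counted for any of these fits, so the counts do not set family 2 genes apart.

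**Figure D5:**
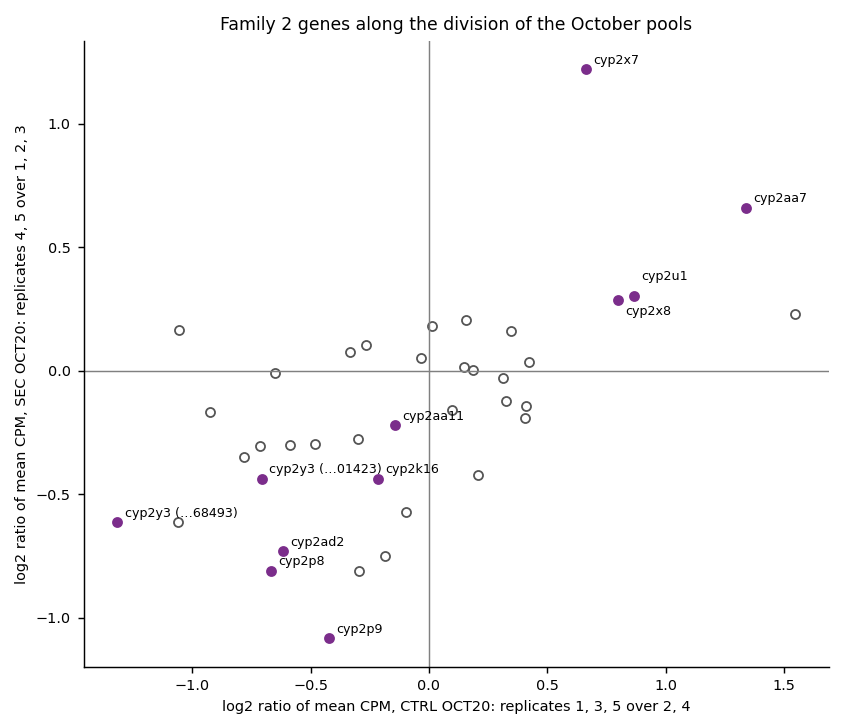
Log2 ratio of mean CPM between the sets A and B of OCT20 pools for each of the 39 tested family 2 genes, in CTRL (horizontal) and SEC (vertical). Filled points are the 11 genes whose set A libraries all lay on the same side of all set B libraries in CTRL and in SEC, 4 to the upper right and 7 to the lower left.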

How the data were processed

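RNA from 20 pools of whole zebrafish larvae was made into stranded mRNA libraries with unique molecular identifiers and sequenced in pairs, per the labels' protocols. The deposited values were raw counts per gene. GRCz11, CASAVA, STAR 2.7.8a, SAMtools and DESeq2 3.17 are named in the submitters' processing notes, with no role or order. The sources used here do not give the counting tool, the annotation release, or how molecular identifiers and reads shared by similar genes were treated. The table held 32520 genes, and the files of single samples held the same values.

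Counts of 23121 genes that passed edgeR's filter (minimum count 10) were scaled by TMM and fitted over all 4 groups with edgeR 4.0.16 (R 4.3.3, limma 3.58.1) by the quasi-likelihood test, with Benjamini-Hochberg adjustment over all tested genes and a threshold of 0.05. CPM were computed from the TMM-scaled totals. Standard errors of log2 changes were derived from the test, as the absolute change divided by the square root of its F statistic. They are therefore approximate, and those of separate contrasts need not combine. Contrasts were SEC minus CTRL in each campaign, the difference of these effects, and CTRL OCT20 minus CTRL JUN20. With totals of 28.8 to 59.9 M counts, depth limits the lowest genes most. Precision is that of 5 pools per group. Alternatives were DESeq2 1.42.0, other scalings and filters, a replicate block, a fit per campaign, a term for the division of OCT20 pools, and each library left out. The calculation was tested on simulated data. Replicate pairs differed by more than sampling noise (chi-square per degree of freedom of 5.45 to 44.0 over 40 pairs).

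The family 2 genes, the gene lists and the markers were chosen with earlier results of these data known. Of 130 list genes 127 were matched, cyp27a1.1 through the reference table of names and the others by symbol. Values are given for every called family 2 gene, in every library for the 8 with the smallest adjusted p, and for the 5 uncalled genes with the largest change. A part of the rule that ranked uncalled genes by level per length was not applied, since gene lengths of this build were not used here; levels are therefore not compared between genes. From the lists, called genes are named, up to 4 by adjusted p. Beyond that rule cyb5b, nr1h4, hnf4a, ephx2, the regulators that fell beside ahr1b and the uncalled electron transfer genes are named, a choice made with their values known.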

Additional observations from a re-analysis of the deposited data

Results flagged for a closer look

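In 5 of 156 groups of 5 libraries (3.21%) 1 library stood apart from the other 4 by a Dixon test, where chance gives about 1 in 20. In SEC JUN20 replicate 1, cyp2ad6 was at 21.6 CPM (13.4 to 15.4 in the others), cyp2p7 at 9.93 CPM (1.98 to 2.91) and cyp2x9 at 7.29 CPM (17 to 20.4). In SEC JUN20 replicate 2, cyp2k6 ENSDARG00000098995 was at 3.52 CPM (1.75 to 2.19). In CTRL OCT20 replicate 5, cyp2r1 was at 2.31 CPM (0.968 to 1.25).

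The effect of SEC differed between the campaigns, by the edgeR test of the difference, for cyp2k18 by 2.19 on the log2 scale (adjusted p = 0.00176), for cyp2n13 by 0.58 (adjusted p = 0.00436) and for cyp2y3 ENSDARG00000101423 by 0.99 (adjusted p = 0.0396). All 3 were larger in OCT20. None of these 3 calls held under every alternative run. Those of cyp2k18 (adjusted p = 0.0511) and cyp2n13 (adjusted p = 0.0531) were lost only with set A alone, a fit with fewer OCT20 libraries.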

How the results depend on the processing

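In JUN20 12 of 16 calls and in OCT20 14 of 21 calls of higher family 2 genes held under every alternative run. Their number was 12 to 15 in JUN20 and 17 to 22 in OCT20 with 1 library left out, and 14 to 18 and 18 to 23 otherwise. Of the 3 calls in the difference between campaigns, 0 held under every alternative. The same was 0 of 1 for genes lower in OCT20 and 0 of 1 for genes higher in the control contrast. In the difference between campaigns the calls of cyp2k18 and cyp2n13 were lost only with set A alone. The small counts moved. Genes called lower in JUN20 numbered 1 with DESeq2, with the replicate block and with the term for the OCT20 division (0 to 1 with a library left out). Genes called lower in OCT20 numbered 0 without a filter, with the block, in a fit of that campaign alone and in set B alone (0 to 1 with a library left out). The OCT20 effect was called larger for 6 genes with DESeq2, 5 with a stricter filter and 5 with the division term (2 to 5 with a library left out). In the control contrast 0 genes were higher without a filter (0 to 3 with a library left out), and 1 was lower with DESeq2 (0 to 2 with a library left out). Among the alternatives, shares of all tested genes were counted for the scalings only. With a library left out the change of cyp2p7 in JUN20 ran from -0.76 to 0.16, and it turned to 0.04 without SEC JUN20 replicate 4 and to 0.16 without CTRL JUN20 replicate 4. The cause was not tested. Of the values of single genes, 951 kept direction and side of the threshold, 91 lost the call, 19 gained it and 2 turned.

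Replicate numbers gave no clear pairing of the samples. Correlations of same-numbered deviations were -0.0711 to -0.0151 in JUN20 and -0.355 to 0.228 in OCT20, with 2 of 5 pairs over 0.1 in OCT20. Only 1 SEC OCT20 sample and no other correlated best with its own number. The OCT20 division also enters these correlations, so they cannot show whether a number marks a shared spawn or day. The gene called lower in JUN20 with the block was cyp2aa8 (adjusted p = 0.00644). With the replicate block 14 family 2 genes were called higher in JUN20, 18 in OCT20 and 2 in the difference, with shares of all tested genes not counted. The block could not be fitted for the control contrast, since blocks lie within campaigns. Depth limits the 4 untested genes.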

Other observations

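The family 2 genes had a higher median variation between pools of a group than all genes together. Among genes with a mean of at least 100 counts, the median coefficient of variation of CPM was 14.0% for family 2 genes and 6.52% for all such genes in CTRL JUN20, and 18.8% and 9.67% in CTRL OCT20. In the exposed groups it was 17.1% and 6.83% in SEC JUN20 and 18.2% and 7.15% in SEC OCT20. The highest values were those of cyp2p7 in CTRL JUN20 (63.8%) and SEC JUN20 (83.5%), cyp2x12 in CTRL OCT20 (56.9%) and cyp2x7 in SEC OCT20 (49.3%). These are descriptions of these libraries. Above the floor of 100 counts genes were not matched by level, and no test was made.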
